A study of Mus musculus with 29 samples.

Results

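The genes described here are 36 chemokine and chemokine receptor genes, 24 ligands and 12 receptors, read in splenic and hepatic macrophages sorted from mice with and without RNase T2. They were taken by symbol from a deposited expression table of 23930 genes in 29 libraries, and each of the 36 was found once. The study asked how loss of RNase T2, a lysosomal enzyme that degrades RNA, alters macrophages in both organs. In Rnaset2-/- mice both Rnaset2a and Rnaset2b are deleted, and wild-type C57BL/6 mice were purchased. Mice of either sex entered the study, their ages are not given in the labels, and no group was treated.

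Ly6Chi macrophages were gated as Ly6C-high CD11b+ cells that lacked Ly6G, SiglecF and NK1.1. Ly6Clow macrophages were gated as Ly6C-low CD11b+ cells bearing CD16.2 (Fcgr4), again lacking those 3 markers. Kupffer cells (KCs), the resident macrophages of the liver sinusoids, were gated by F4/80, Tim4 and intermediate CD11b with low PDCA-1, and came from wild-type mice. These gates are worded as in the labels. For liver cells the study's methods differ. Their stain includes none of NK1.1, Ly6G, SiglecF and Tim4, and KCs are given there as CD11b-low. They also give the same Ly6C-low, CD16.2-high gate for both Rnaset2-/- hepatic subsets, and no Ly6C split for wild-type hepatic macrophages. These parts of the hepatic gates are therefore uncertain. SiglecF, an eosinophil marker, is not in the methods' splenic stain either. The spleen gave 3 wild-type Ly6Chi, 3 wild-type Ly6Clow, 3 Rnaset2-/- Ly6Chi and 4 Rnaset2-/- Ly6Clow libraries. The liver gave 3 libraries of each genotype and subset and 4 KC libraries. Spleen cells were depleted of lymphocytes, neutrophils and erythroid cells before sorting, whereas liver was dissociated in a heated gentleMACS device. The labels do not say whether replicates came from separate mice, so p-values measure the spread between these libraries.

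Chemokines are small secreted proteins that attract leukocytes along gradients, and they are named CC, CXC or XC by the spacing of their first cysteines. Their receptors are G protein-coupled proteins on leukocytes, and most receptors read several ligands. In spleen and liver, chemokines of macrophages recruit monocytes, neutrophils and lymphocytes, and many inflammatory ligand genes are switched on within minutes to hours by NF-kB or by interferon.

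The promoters of 5 members are shown first because these genes are among those whose RNA differed between groups in the results that follow, and because each holds the kappa-B consensus, the sequence bound by NF-kB. Each window runs from 120 to 41 bases before the RefSeq start of the gene on its own strand (build GRCm38.p6), 5′ to 3′, and capitals mark matches to kappa-B, searched on both strands and overlapping one another.
Cxcl1 (chr5:90891125-90891204, plus strand): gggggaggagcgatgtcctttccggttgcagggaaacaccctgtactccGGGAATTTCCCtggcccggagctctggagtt
Cxcl2 (chr5:90903779-90903858, plus strand): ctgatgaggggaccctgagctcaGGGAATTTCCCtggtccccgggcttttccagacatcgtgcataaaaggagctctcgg
Cxcl3 (chr5:90785981-90786060, plus strand): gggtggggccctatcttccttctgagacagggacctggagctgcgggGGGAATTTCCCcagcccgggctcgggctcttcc
Cxcl10 (chr5:92348930-92349009, minus strand): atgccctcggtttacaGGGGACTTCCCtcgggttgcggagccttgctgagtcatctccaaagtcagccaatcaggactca
Ccrl2 (chr9:111057559-111057638, minus strand): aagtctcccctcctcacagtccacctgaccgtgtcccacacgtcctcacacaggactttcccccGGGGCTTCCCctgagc
Within these windows the first matched base lay 71, 97, 73, 104 and 56 bases before the start, in that order. Cxcl10 held a further match outside its window, 159 bases before the start. Of the 28 members with a promoter entry of 250 bases before to 50 after the start, 9 held a kappa-B match (Ccl9, Cxcl1, Cxcl2, Cxcl3, Cxcl10, Ccr1, Ccr3, Ccr6 and Ccrl2), against 8.46% of all 32851 promoters of that length. A pair of TTTC separated by NN, the core of the interferon-stimulated response element, was found on either strand in Cxcl10 and Cxcl14, against 3.44% of all promoters. A match is a run of letters and no evidence of binding. Ccl2, Ccl4, Ccl5, Ccl7, Cxcl11, Cxcl16, Ccr7 and Cxcr5 had no entry.

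Most of the ligands lie in gene clusters. On chromosome 5 (GRCm38, 90768518 to 95961068) stand 9 CXC ligands, among them Cxcl1, Cxcl2, Cxcl3, Cxcl9, Cxcl10 and Cxcl11. On chromosome 11 stand 10 ligands, of which 9 are CC ligands and 1 is Cxcl16, and on chromosome 8 stand Ccl17 and Ccl22. Chromosome 9 holds 7 of the 12 receptors. Cxcl16 and Cxcr5 stand far from the other members on their chromosomes. Cxcl12, Cxcl14, Xcl1, Ccr6, Ccr7, Cxcr2, Cxcr3 and Cxcr4 lie elsewhere, each apart from the others.

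Values are RPM, the reads of a gene scaled to a fixed library total, from an amplicon assay, in which each gene is read by its own primer pair. The level of a member is therefore compared between libraries and not with other members. List sums add the RPM of several genes, so the genes with the most reads weigh most in them. Libraries held 11175843 to 21167602 reads (median 13027220), and 3 reads, taken here as the floor, correspond to 0.142 to 0.268 RPM. The summed classical monocyte list was higher in every Ly6Chi than in any Ly6Clow library of the same organ and genotype (4080 to 4680 RPM against 147 to 236 RPM in wild-type spleen). The patrolling monocyte list was higher in Ly6Clow libraries except in Rnaset2-/- liver, where the subsets overlapped (1590 to 6820 RPM in Ly6Chi and 4410 to 6280 RPM in Ly6Clow), and the summed KC list was 6570 to 19100 RPM in KCs. The KC list also summed to 5880 to 11100 RPM in Rnaset2-/- hepatic Ly6Clow libraries, against 118 to 165 RPM in their wild-type counterparts, and most of that sum was 1 gene, Cd5l (mean 7289.9 RPM, and 6345 RPM in KCs). Clec4f (44.7 and 4197 RPM) and Timd4 (30.0 and 365 RPM) were far below KCs, and 5 of 7 KC genes were lower and 0 higher than in KCs. Against wild-type hepatic Ly6Clow libraries 5 of 7 were higher and 0 lower, among them Marco (3.22 to 261 RPM, and 269.8 RPM in KCs) and Vsig4 (22.6 to 145 RPM), so these cells are called by their gate. KC libraries also carried B cell (592 to 1110 RPM) and T cell (140 to 239 RPM) list sums, with NK (181 to 541 RPM), cDC1 (217 to 410 RPM), endothelial or stromal (1750 to 2830 RPM) and hepatocyte (1170 to 3990 RPM) lists. The endothelial or stromal list shares Cdh5 (mean 858 RPM in KCs) with the KC list. Its Pecam1 had means of 497 RPM in KCs, and of 1883 and 1950 RPM in Rnaset2-/- splenic and hepatic Ly6Clow libraries. RNase T2 genes were not analysed here, so deletion was not checked from the data. Xist, transcribed in females, was at most 0.154 RPM in all 6 Rnaset2-/- hepatic libraries and 321 to 539 RPM in all 6 wild-type hepatic Ly6Chi and Ly6Clow libraries, and Y-linked genes summed to 150 to 291 RPM in the former and to 0 in 2 and 29 to 52 RPM in 4 of the latter, and those 4 thus held reads of both kinds. The sex makeup and the genotype of hepatic libraries cannot be told apart. Among splenic libraries, Rnaset2-/- Ly6Clow replicate 2 (Xist 0.781 RPM) stood apart from the rest, which were at 353 RPM or more. The 3 wild-type splenic Ly6Chi libraries were the closest to each other of any group, with a mean chi-square of 6.17 to 8.75 per gene between pairs of libraries against 11 to 211 in the other groups.

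**Figure D1:**
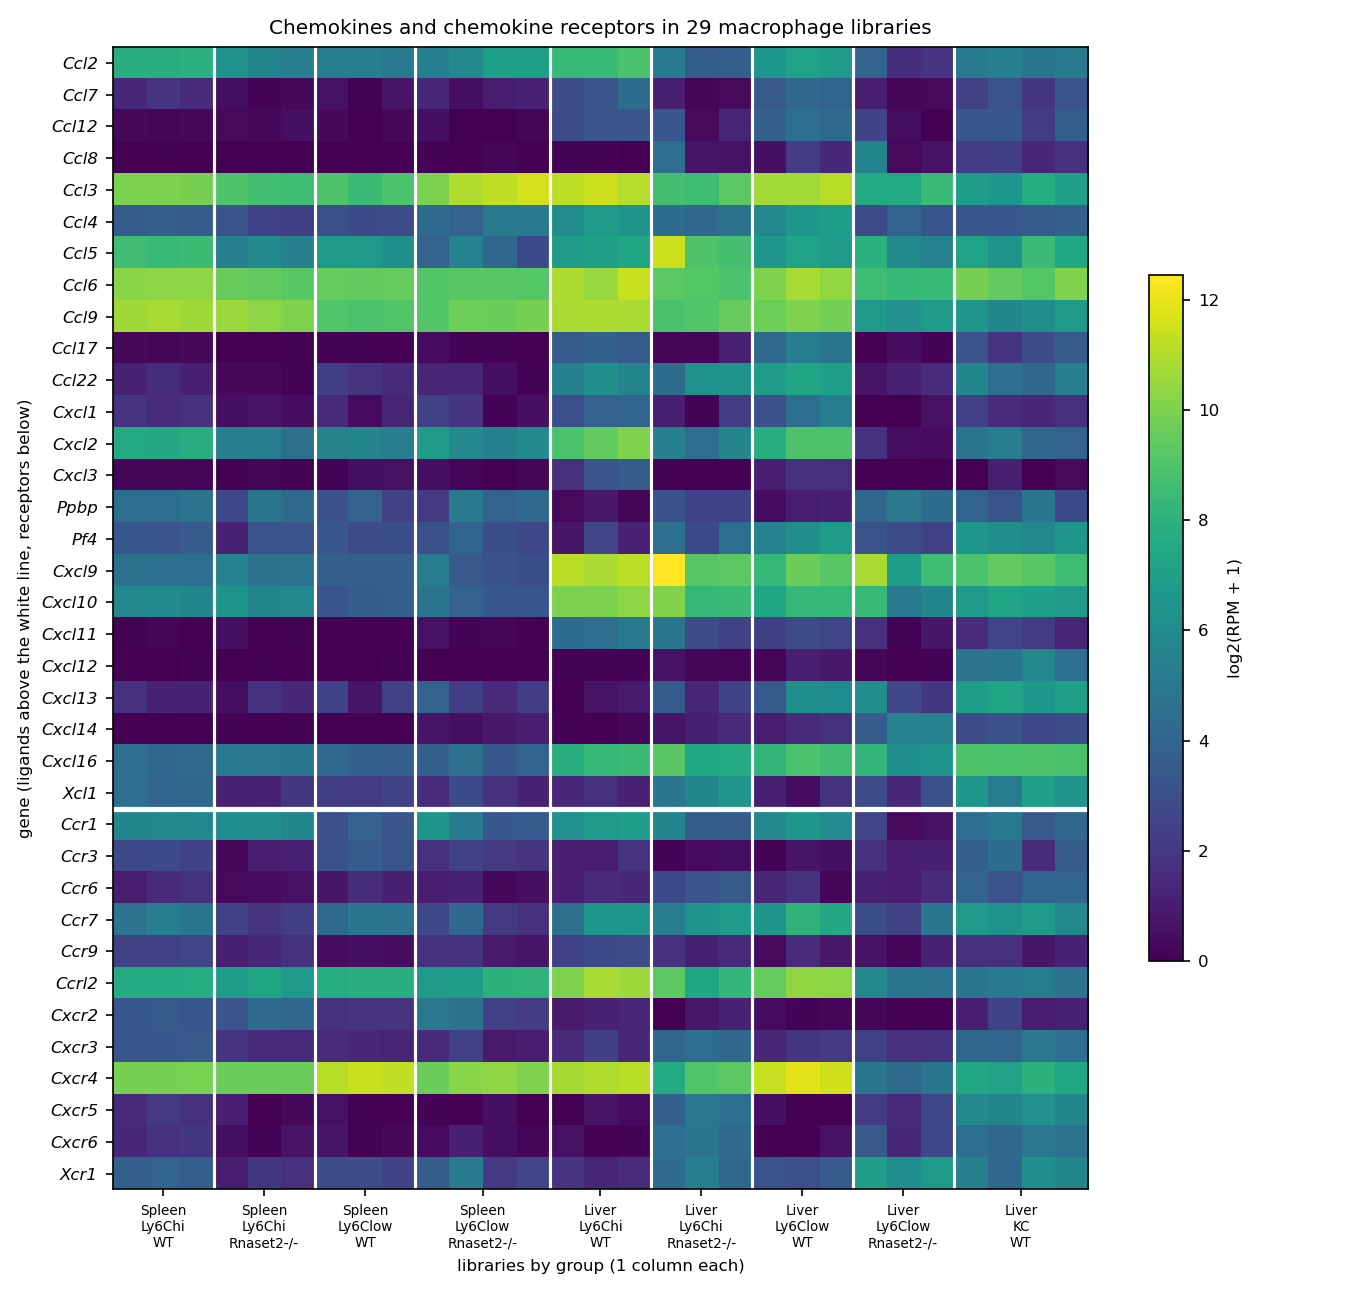
Heat map of log2(RPM + 1) for the 36 members (rows, ligands above receptors) in the 29 libraries (1 column each, ordered by group). Cxcl9 and Cxcl16 are brighter in every hepatic library than in any splenic one, and Cxcl2 and Ccrl2 are brightest in the 6 wild-type hepatic Ly6Chi and Ly6Clow libraries.

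Most ligands had their highest group mean in the liver. Of the 24 ligands, 8 were highest in wild-type hepatic Ly6Chi macrophages, 6 in wild-type hepatic Ly6Clow macrophages, 5 in KCs, 2 in each of the Rnaset2-/- hepatic groups and 1 (Ppbp) in wild-type splenic Ly6Chi macrophages. Of the 12 receptors, 5 were highest in KCs, 3 in wild-type hepatic Ly6Chi, 2 in wild-type hepatic Ly6Clow and 1 each in Rnaset2-/- hepatic Ly6Clow (Xcr1) and Rnaset2-/- splenic Ly6Clow macrophages (Cxcr2). For most members, Ppbp among them, the libraries of the highest group overlapped those of the second. Cxcl9 was highest in Rnaset2-/- hepatic Ly6Chi and Ccl8 in Rnaset2-/- hepatic Ly6Clow macrophages through replicate 1 alone. Ccl8, Ccl12, Ccl17, Cxcl3, Cxcl11, Cxcl12 and Cxcl14 stayed below 1 RPM in every splenic library. In bulk libraries such as these, fewer cells of a type and less RNA per cell cannot be told apart.

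The main comparison was Rnaset2-/- against wild-type macrophages of the same organ and subset. Differences were tested with limma on log2(scaled RPM + 1) across every gene at 1 RPM or more in 3 or more libraries of the comparison, with Benjamini-Hochberg adjustment over those genes, and a gene was called at more than 1.5-fold with an adjusted p under 0.05. Each log2 difference is Rnaset2-/- minus wild type unless another order is given, on that scale, which understates the change of low genes. The figure after ± is the SD beside a mean and the SE beside a log2 difference. Members that reached the filter through 1 group only had to differ between groups, so the counts below describe the tested members and are no evidence by themselves.

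In splenic Ly6Chi macrophages, 18 members fell and 1 rose in Rnaset2-/- libraries of 29 tested, where 22.2% of all tested genes were called. The other 7 members were too low to test, and 5 of the 29 (Ccl7, Ccl22, Cxcl1, Ccr6 and Cxcr6) were tested through the wild-type group alone. The median difference was -0.98 over the 29, against 0.0149 over all tested genes. Of 17 tested ligands 10 fell, and of 12 receptors 8 fell. The call count was 14 of 24 tested when any wild-type replicate was left out, where 17.2% to 17.9% of all genes were called. In 1 fit of 29 libraries it was 12, without Ccl4, Ccl6, Ccl22, Cxcl1, Cxcl16, Ccr6 and Ccr9.

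In splenic Ly6Clow macrophages, 2 members (Ccl3 and Ccl4) rose and 4 (Ccl5, Ccr3, Ccr7 and Cxcr4) fell of 26 tested, where 8.35% of all genes were called, and the median difference was 0.14. Ccl7 was the 1 member tested through 1 group alone. These calls depended on single libraries of both genotypes. Without wild-type replicate 2 or 3, limma called 0 members and only 1.87% or 1.42% of all genes, although 8 members had an unadjusted p under 0.05 each time. Without wild-type replicate 1 it called 3 members (Ccl3, Ccr3 and Cxcr4) and 3.5% of all genes. Without Rnaset2-/- replicate 1 it called 9 members and 11% of all genes.

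In hepatic Ly6Chi macrophages, 15 members fell and 10 rose of 33 tested, where 30.6% of all genes were called, and the median difference was -1.46. Cxcl3, Ppbp, Cxcl13, Ccr3, Cxcr5 and Cxcr6 were tested through 1 group alone. Ligands fell more often than they rose (10 and 5 of 21 tested), while receptors split evenly (5 and 5 of 12). Rnaset2-/- replicate 1 stood apart from its 2 companions for several interferon-inducible ligands. Without it 19 members fell and 6 rose of 29 tested, where 37.1% of all genes were called.

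In hepatic Ly6Clow macrophages, 19 members fell and 5 rose of 33 tested, where 42.7% of all genes were called, and the median difference was -1.75. Ccl17, Cxcl1, Cxcl3, Ccr3, Cxcr5 and Cxcr6 were tested through 1 group alone. Of 23 tested ligands 15 fell and 2 rose, and of 10 tested receptors 4 fell and 3 rose. Without Rnaset2-/- replicate 1, 22 fell and 3 rose of 29 tested, where 42.7% of all genes were called. Ccl2, Ccl3, Ccl4, Ccl6, Ccl7, Cxcl1 and Cxcl2 were lower in 3 of the 4 comparisons, while in splenic Ly6Clow macrophages Ccl3 and Ccl4 were higher. The falls of Ccl7 and Cxcl1 in splenic Ly6Chi and of Cxcl1 in hepatic Ly6Clow macrophages were tested through wild-type libraries alone. Those falls are descriptions.

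**Figure D2:**
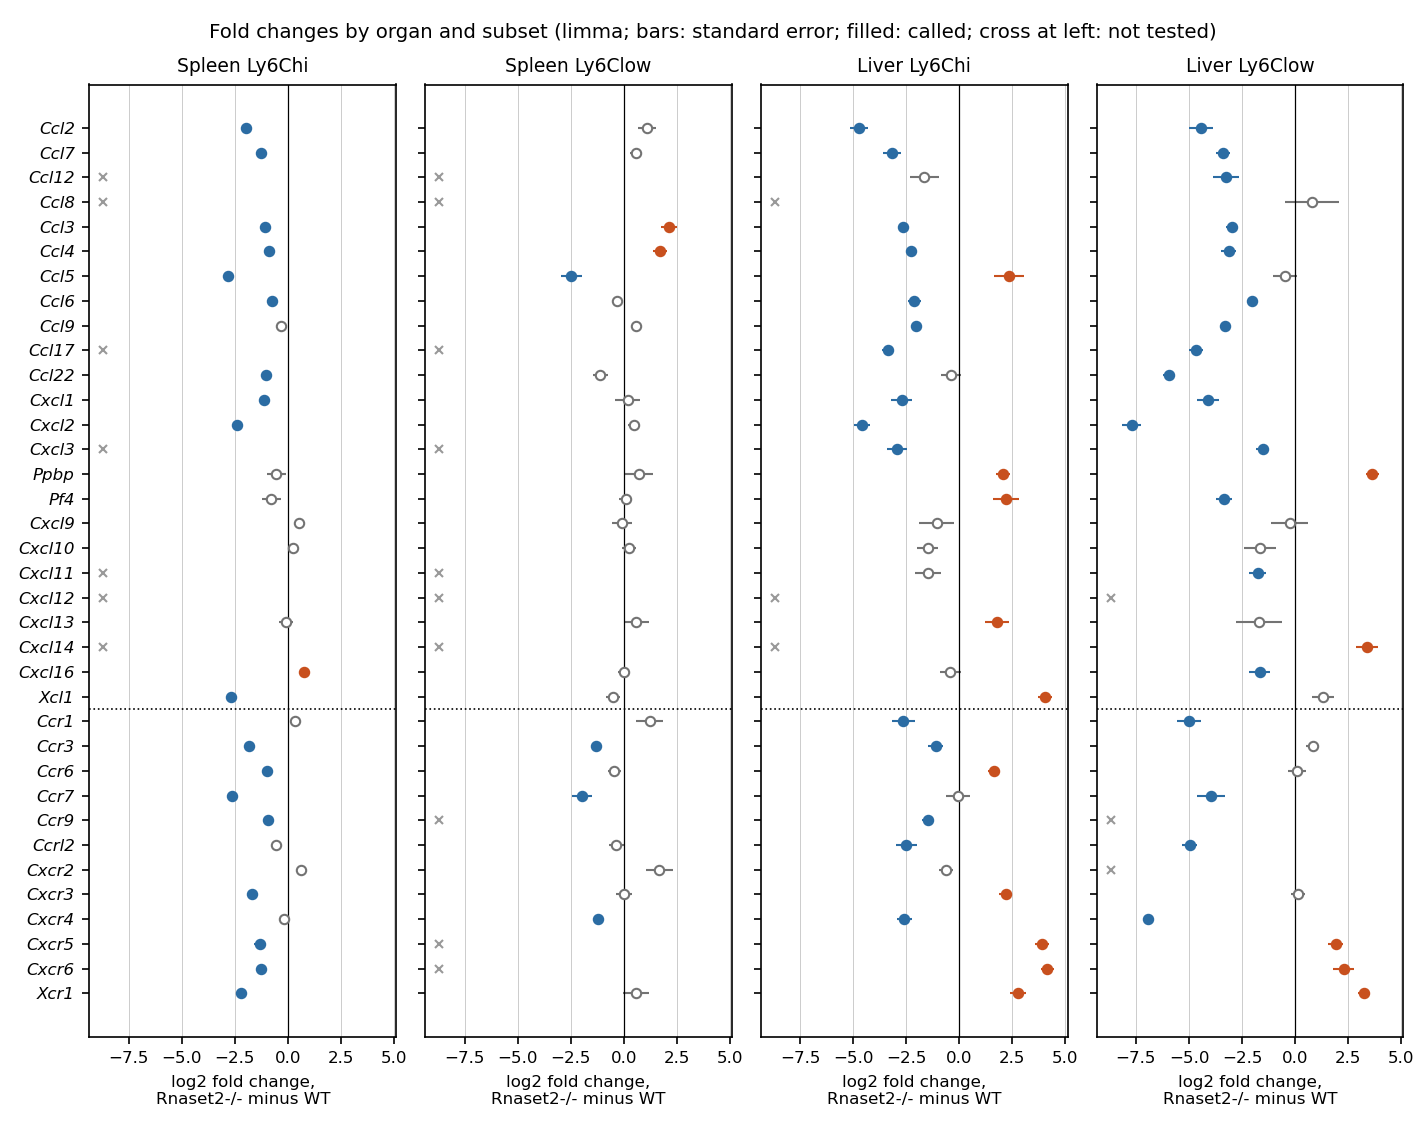
Log2 difference (Rnaset2-/- minus wild type, log2(scaled RPM + 1), error bars SE) of each member in the 4 genotype comparisons, filled where called and with a cross at the left edge where not tested. Ccl2, Ccl3, Ccl4, Ccl7 and Cxcl2 lie left of 0 in both hepatic subsets, and Xcl1, Cxcr3, Cxcr5 and Cxcr6 lie left of 0 in splenic Ly6Chi but right of 0 in hepatic Ly6Chi macrophages.

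Among the ligands, Ccl2, which draws classical monocytes through Ccr2, fell in 3 comparisons. In splenic Ly6Chi macrophages Ccl2 measured 232, 224 and 242 RPM in wild-type and 83.4, 48.6 and 39.5 RPM in Rnaset2-/- libraries. The groups did not overlap, and the difference was -1.96 ± 0.21 (limma, adjusted p = 8.83e-05). Hepatic Ly6Chi macrophages had 334, 342 and 473 RPM of Ccl2 in wild-type and 32.8, 11.9 and 12.1 RPM in Rnaset2-/- libraries, a 20.3-fold lower mean. In hepatic Ly6Clow macrophages it measured 91.2, 147 and 114 RPM against 14.6, 2.10 and 2.60 RPM. Every Rnaset2-/- hepatic library was thus below every wild-type one of its subset, with differences of -4.71 ± 0.42 in Ly6Chi (adjusted p = 0.000434 by limma) and -4.41 ± 0.56 in Ly6Clow (adjusted p = 0.000553 by limma). In splenic Ly6Clow macrophages the values ran the other way, 37.5, 38.9 and 35.1 RPM in wild-type and 40.04, 55.9, 136 and 132 RPM in Rnaset2-/- libraries, without passing the test (limma, adjusted p = 0.134).

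Ccl7 and Ccl12, of the same chromosome 11 cluster as Ccl2 and also monocyte attractants, were low throughout the spleen. Ccl7 fell in hepatic Ly6Clow macrophages from 10.02, 17.5 and 15.4 RPM to 1.08, 0.156 and 0.230 RPM (-3.40 ± 0.33, limma, adjusted p = 0.00016), and in hepatic Ly6Chi macrophages from 6.79, 8.84 and 19.9 RPM to 1.15, 0.154 and 0.231 RPM. Ccl12 in hepatic Ly6Clow macrophages was 13.2, 22.7 and 18.5 RPM in wild-type and 4.70, 0.389 and 0 RPM in Rnaset2-/- libraries, and its call was lost with DESeq2 (adjusted p = 0.0771). The Rnaset2-/- library with the most Ccl12 in each hepatic subset was replicate 1. The same 2 libraries held most of the Ccl8, a ligand of the same cluster, with 21.7, 0.618 and 0.538 RPM in Ly6Chi and 48.7, 0.233 and 0.536 RPM in Ly6Clow, and Ccl8 was not called in Ly6Clow macrophages (limma, adjusted p = 0.647) and was too low to test in the other 3 genotype comparisons.

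Ccl3 and Ccl4 attract T cells, NK cells and monocytes through shared receptors, and they were the ligands that went opposite ways in the splenic subsets. Ccl3 measured 1004, 999 and 947 RPM in wild-type splenic Ly6Chi and 510.1, 412 and 385 RPM in Rnaset2-/- splenic Ly6Chi libraries, and it fell by 1.07 ± 0.11 (limma, adjusted p = 8.35e-05). In splenic Ly6Clow libraries it measured 524, 362 and 483 RPM in wild-type and 1021, 1999.8, 2452 and 3234 RPM in Rnaset2-/- mice. All 4 Rnaset2-/- values lay above all 3 wild-type values, and Ccl3 rose by 2.16 ± 0.38 (limma, adjusted p = 0.0137), a call lost without wild-type replicate 2 (0.0748) or 3 (0.0667). Ccl4 followed it, at 7.20, 6.04 and 6.46 RPM against 19.2, 13.8, 33.9 and 34.8 RPM in splenic Ly6Clow libraries (1.72 ± 0.33, limma, adjusted p = 0.0194), and its call was lost without any 1 of the wild-type replicates (adjusted p up to 0.0884). In the liver Ccl3 fell in Ly6Clow macrophages from 1666, 1709 and 2219 RPM to 196, 197 and 351 RPM. Ccl3 and Ccl4 also fell in hepatic Ly6Chi macrophages, by 2.68 and 2.29 respectively, with no overlap between groups.

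Cxcl1, Cxcl2 and Cxcl3 attract neutrophils through Cxcr2, and the kappa-B matches printed above lie in their promoters. Cxcl2 measured 218, 505 and 506 RPM in wild-type and 2.54, 0.389 and 0.306 RPM in Rnaset2-/- hepatic Ly6Clow libraries. That was the widest genotype difference of any member, -7.71 ± 0.47 (limma, adjusted p = 2.23e-05). In hepatic Ly6Chi macrophages Cxcl2 measured 484, 711 and 1038 RPM against 42.3, 20.9 and 50.2 RPM, a 19.7-fold lower mean, and in splenic Ly6Chi macrophages 196, 181 and 215 RPM against 41.01, 39.3 and 23.0 RPM, a 5.74-fold lower mean. Groups did not overlap in any of these 3 comparisons, whereas in splenic Ly6Clow macrophages they did (46.7, 48.9 and 39.6 RPM against 111, 57.6, 42.9 and 56.2 RPM). Cxcl1 was 7.37, 21.3 and 36.6 RPM in wild-type hepatic Ly6Clow libraries and was listed at 0, 0 and 0.459 RPM in the Rnaset2-/- ones. Cxcl3 was 1.08, 2.44 and 2.33 RPM in the former and had no read in any of the latter, at least 8.42-fold lower against 3 reads per library.

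Ccl6 and Ccl9 are ligands of Ccr1 made abundantly by mouse myeloid cells. Ccl9 in hepatic Ly6Clow macrophages fell from 838, 1041 and 929 RPM to 3 values between 78.6 and 111 RPM (-3.31 ± 0.20, limma, adjusted p = 2.32e-05), and Ccl6 from 1035, 1788 and 1398 RPM to 381, 323 and 339.6 RPM. Both also fell in hepatic Ly6Chi macrophages, with mean levels 3.2-fold and 3.58-fold lower. In splenic Ly6Chi macrophages Ccl6 fell by 0.75 while Ccl9 did not pass the test (limma, adjusted p = 0.0936).

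Ccl17 and Ccl22, on either side of Cx3cl1 on chromosome 8, both bind Ccr4 and are typical of activated dendritic cells. Ccl22 measured 115, 163 and 128 RPM in wild-type and 0.616, 1.25 and 1.99 RPM in Rnaset2-/- hepatic Ly6Clow libraries, a difference of -5.95 ± 0.28 (limma, adjusted p = 8.76e-06). Ccl17 measured 18.9, 38.8 and 27.6 RPM against 0, 0.311 and 0.0770 RPM in the same libraries. The pair parted in hepatic Ly6Chi macrophages, where Ccl17 fell from 11.1, 13.4 and 11.4 RPM to 0.154, 0.154 and 1.23 RPM while Ccl22 overlapped, at 43.1, 74.6 and 48.8 RPM and 20.1, 79.6 and 82.4 RPM (limma, adjusted p = 0.551). The summed list of mature or type 2 dendritic cell markers, from which members were removed, was 249, 218 and 172 RPM in wild-type and 13.1, 10.4 and 19.3 RPM in Rnaset2-/- hepatic Ly6Clow libraries. Its part in these results was not tested.

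Genes induced by cell handling moved with these ligands in the liver. A list of 28 immediate early and dissociation genes summed to 31400 to 45100 RPM in wild-type and 2130 to 3100 RPM in Rnaset2-/- hepatic Ly6Clow libraries, and 28 of 28 fell. In hepatic Ly6Chi libraries the sums were 37000 to 40900 RPM and 5480 to 10700 RPM, and 24 of 28 fell. In splenic Ly6Chi libraries 19 of 28 fell (sums of 21000 to 21100 RPM and 11200 to 14600 RPM), while in splenic Ly6Clow libraries the sums overlapped (19200 to 25100 RPM and 18700 to 26400 RPM). A list of 17 NF-kB feedback and target genes had 9 lower and 1 higher in hepatic Ly6Chi and 10 lower and 1 higher in hepatic Ly6Clow macrophages. KCs, sorted from wild-type liver, summed to 3320 to 4650 RPM on the immediate early list. The part of this list in the ligand results was not tested.

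**Figure D3:**
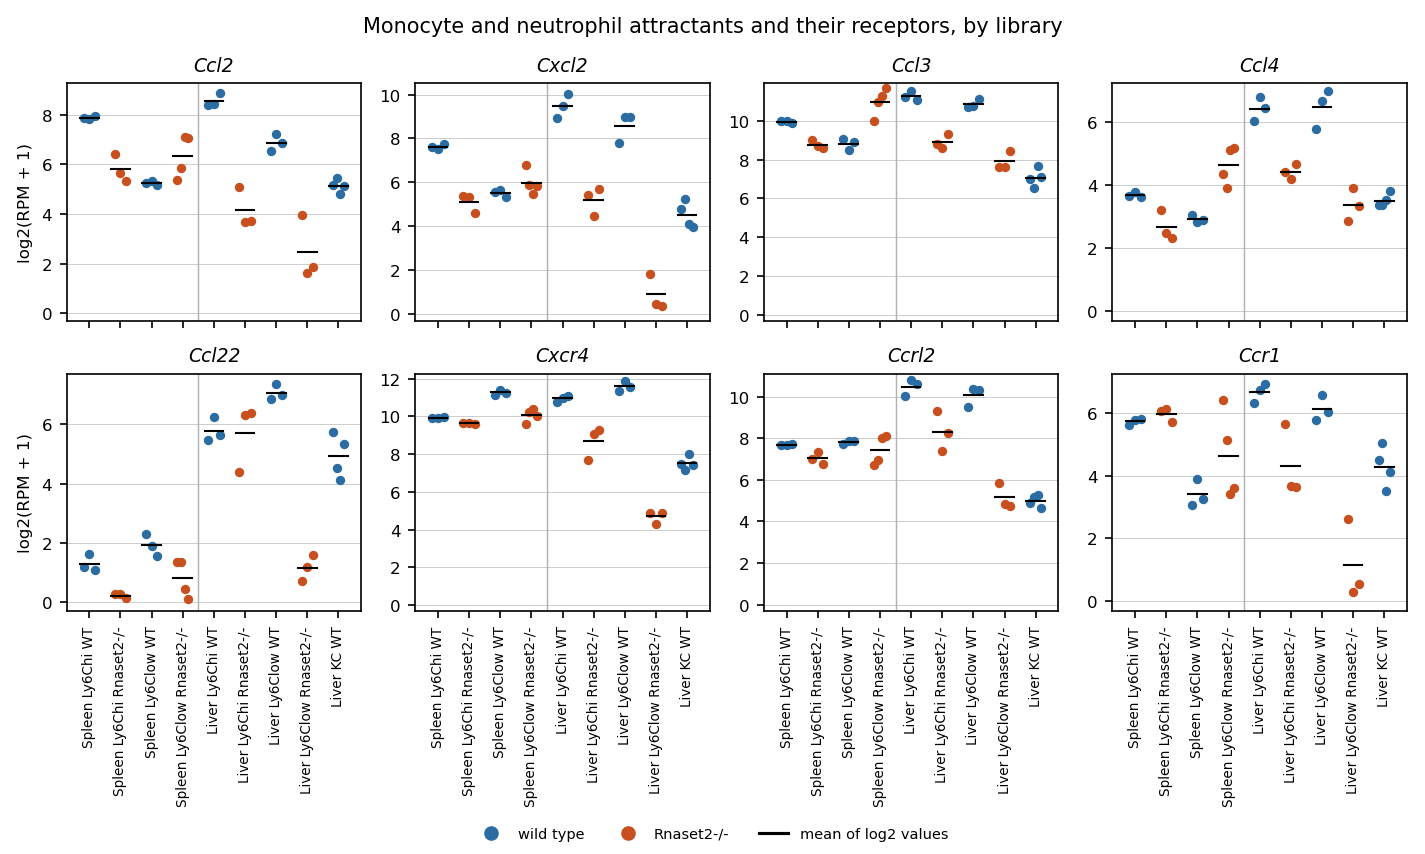
Level of 8 members, as log2(RPM + 1), in each library (dots) of the 9 groups, with the mean of the log2 values as a black line, wild type in blue and Rnaset2-/- in orange. Rnaset2-/- hepatic libraries lie below wild-type hepatic ones for Ccl2, Cxcl2, Ccl3, Ccl4 and Cxcr4 in both subsets, whereas Ccl3 and Ccl4 lie above wild type in splenic Ly6Clow macrophages.

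Cxcl9, Cxcl10 and Cxcl11 are interferon-inducible ligands of Cxcr3. GENCODE annotates mouse Cxcl11 as a polymorphic pseudogene, so its values here describe RNA only. In the liver 1 Rnaset2-/- library of each subset, replicate 1, was the highest for all 3, as it was for Ccl8 and Ccl12. The interferon response list was 1771, 890 and 792 RPM in Rnaset2-/- hepatic Ly6Chi replicates 1 to 3. In the same order the patrolling monocyte list was 1594, 6687 and 6817 RPM, and the endothelial or stromal list 266, 1324 and 1539 RPM. In Ly6Clow replicates 1 to 3 the interferon response list was 1203, 918 and 664 RPM. The part of these lists was not tested. Cxcl9 measured 2262, 1890.1 and 2371 RPM in wild-type and 5576, 583 and 642 RPM in Rnaset2-/- hepatic Ly6Chi libraries, the first value being replicate 1. The mean ± SD was 2267 ± 2866 RPM (n = 3) in Rnaset2-/- mice, and the groups overlapped (limma, adjusted p = 0.357). Cxcl10 measured 1028, 1024 and 1308 RPM against 1073, 314 and 357 RPM (limma, adjusted p = 0.0524), and Cxcl11 19.9, 21.0 and 31.2 RPM against 28.6, 6.57 and 4.54 RPM. With replicate 1 left out, Cxcl9, Cxcl10, Cxcl11, Cxcl16 and Ccl12 were called lower.

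Rnaset2-/- hepatic Ly6Clow replicate 1 was again the highest. Cxcl9 measured 315, 797 and 583 RPM in wild-type and 1879.8, 127 and 386 RPM in Rnaset2-/- libraries, and Cxcl10 162, 323 and 319 RPM against 330.4, 32.2 and 52.1 RPM. Neither passed the test, although without that replicate Cxcl10 was called lower, as was Cxcl13. Cxcl11 fell from 4.06, 6.19 and 5.01 RPM to 2.23, 0.0780 and 0.689 RPM (-1.75 ± 0.41, limma, adjusted p = 0.0089). In the spleen no genotype difference of Cxcl9 or Cxcl10 passed the test with limma in either subset (adjusted p = 0.0688 and 0.918 for Cxcl9, 0.319 and 0.612 for Cxcl10).

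Ccl5 and Xcl1 are ligands made chiefly by T and NK cells, and they went down in splenic and up in hepatic Ly6Chi macrophages. Ccl5 measured 391, 345 and 369 RPM in wild-type and 42.0, 57.7 and 41.9 RPM in Rnaset2-/- splenic Ly6Chi libraries, a 7.8-fold lower mean with no overlap (-2.83 ± 0.14, limma, adjusted p = 1.3e-06). In splenic Ly6Clow macrophages it fell from 107, 106 and 73.1 RPM to 13.9, 44.7, 16.8 and 6.06 RPM (limma, adjusted p = 0.0229), a call lost without any 1 of the wild-type replicates (up to 0.105). Ccl5 rose in hepatic Ly6Chi macrophages from 114, 135 and 159 RPM to 2870.1, 515 and 432 RPM, again with replicate 1 far above the rest. That rise, 2.35 ± 0.70 (limma, adjusted p = 0.0369), was lost without wild-type replicate 1, 2 or 3 (0.116, 0.102 and 0.0933), while without Rnaset2-/- replicate 1 it was 1.43 (0.000249). In hepatic Ly6Clow macrophages the groups overlapped (94.4, 150.4 and 119 RPM and 248, 61.4 and 44.3 RPM), and without Rnaset2-/- replicate 1 Ccl5 was called lower.

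Xcl1, the ligand of Xcr1, measured 20.53, 15.8 and 17.4 RPM in wild-type and 1.32, 1.32 and 2.94 RPM in Rnaset2-/- splenic Ly6Chi libraries. In hepatic Ly6Chi libraries it measured 1.62, 2.17 and 1.25 RPM and 28.8, 51.6 and 87.6 RPM in that order, 9.61-fold lower in the spleen and 33.3-fold higher in the liver. The liver-minus-spleen difference between these effects was 6.73 ± 0.44 (limma interaction term, adjusted p = 5.56e-07).

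Receptors carried by lymphocytes followed. Cxcr3, the receptor of Cxcl9, Cxcl10 and Cxcl11 on T and NK cells, fell in splenic Ly6Chi macrophages from 9.23, 9.71 and 10.1 RPM to 2.74, 1.86 and 1.76 RPM and rose in hepatic ones from 1.93, 4.17 and 1.70 RPM to 16.5, 20.8 and 16.3 RPM. Cxcr6, the receptor of Cxcl16 on liver-homing lymphocytes, was 0.463, 0 and 0.0890 RPM in wild-type and 22.3, 28.9 and 17.8 RPM in Rnaset2-/- hepatic Ly6Chi libraries (4.15 ± 0.30, a description, since Cxcr6 and Cxcr5 reached the filter there through the Rnaset2-/- group alone). Cxcr5, which guides B cells to Cxcl13, was 0, 0.584 and 0.268 RPM against 12.97, 30.1 and 22.2 RPM in these libraries. Cxcr5 and Cxcr6 rose in hepatic Ly6Clow macrophages too, to 3.46, 1.79 and 5.28 RPM and 10.01, 1.71 and 5.36 RPM, from wild-type values of at most 0.414 and 0.537 RPM. Cxcr3 there overlapped between genotypes.

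Ccr6, found on B cells and some T cells, fell in splenic Ly6Chi macrophages (1.04, 1.80 and 2.52 RPM to 0.236, 0.294 and 0.475 RPM) and rose in hepatic ones (1.08, 1.92 and 1.70 RPM to 5.83, 8.73 and 10.7 RPM, limma, adjusted p = 0.00427). Ccr7, which guides mature dendritic cells and naive T cells to lymphoid tissue, fell in splenic Ly6Chi macrophages from 25.7, 38.4 and 27.4 RPM to 4.35, 2.70 and 3.89 RPM (-2.65 ± 0.20, limma, adjusted p = 8.16e-06). It also fell in hepatic Ly6Clow macrophages, from 87.2, 273 and 181 RPM to 6.93, 4.28 and 28.3 RPM, but its groups overlapped in hepatic Ly6Chi macrophages, where it measured 23.2, 97.0 and 95.5 RPM and 37.8, 85.2 and 117 RPM (limma, adjusted p = 0.956). The fall of Ccr7 in splenic Ly6Clow macrophages (limma, adjusted p = 0.0412) was lost in 7 of 14 alternative settings, among them leaving out Rnaset2-/- replicate 3 or 4 or any 1 of the wild-type replicates, with an adjusted p of up to 0.155. The mature or type 2 dendritic cell list fell with Ccr7 in splenic Ly6Chi libraries, from 75.5 to 84.5 RPM in wild-type to 17.4 to 27 RPM in Rnaset2-/- mice with 5 of 5 genes lower, and its part was not tested.

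In Ly6Chi macrophages NK and T cell markers fell in the spleen and rose in the liver, as Xcl1, Cxcr3, Cxcr5, Cxcr6 and Ccr6 did. The summed list of 8 NK cell genes was 687 to 760 RPM in wild-type and 31.8 to 68.8 RPM in Rnaset2-/- splenic Ly6Chi libraries, where 8 of 8 fell, and all 6 tested T cell genes fell too. In hepatic Ly6Chi libraries the NK list was 14.6 to 27.6 RPM in wild-type and 209 to 630 RPM in Rnaset2-/- mice, the T cell list 3.7 to 6.09 RPM and 126 to 287 RPM, and the B cell list 20 to 21.5 RPM and 130 to 341 RPM. There 7 of 8 tested NK genes, 6 of 6 T cell genes and 7 of 7 B cell genes rose. In hepatic Ly6Clow libraries 5 of 5 tested T cell and 6 of 6 tested B cell genes rose, as did Cxcr5 and Cxcr6, while Ccr7 fell and Cxcr3 overlapped. In splenic Ly6Clow libraries, where Ccl5 fell and Cxcr3 and Xcl1 were not called, 5 of 8 NK genes fell (list sums of 96.9 to 156 RPM in wild-type and 10.5 to 68.3 RPM in Rnaset2-/- mice). The labels give every Ly6Chi and Ly6Clow gate as NK1.1-negative, which the methods state for the spleen but not for the liver, and the part of these lists in the members' results was not tested.

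**Figure D4:**
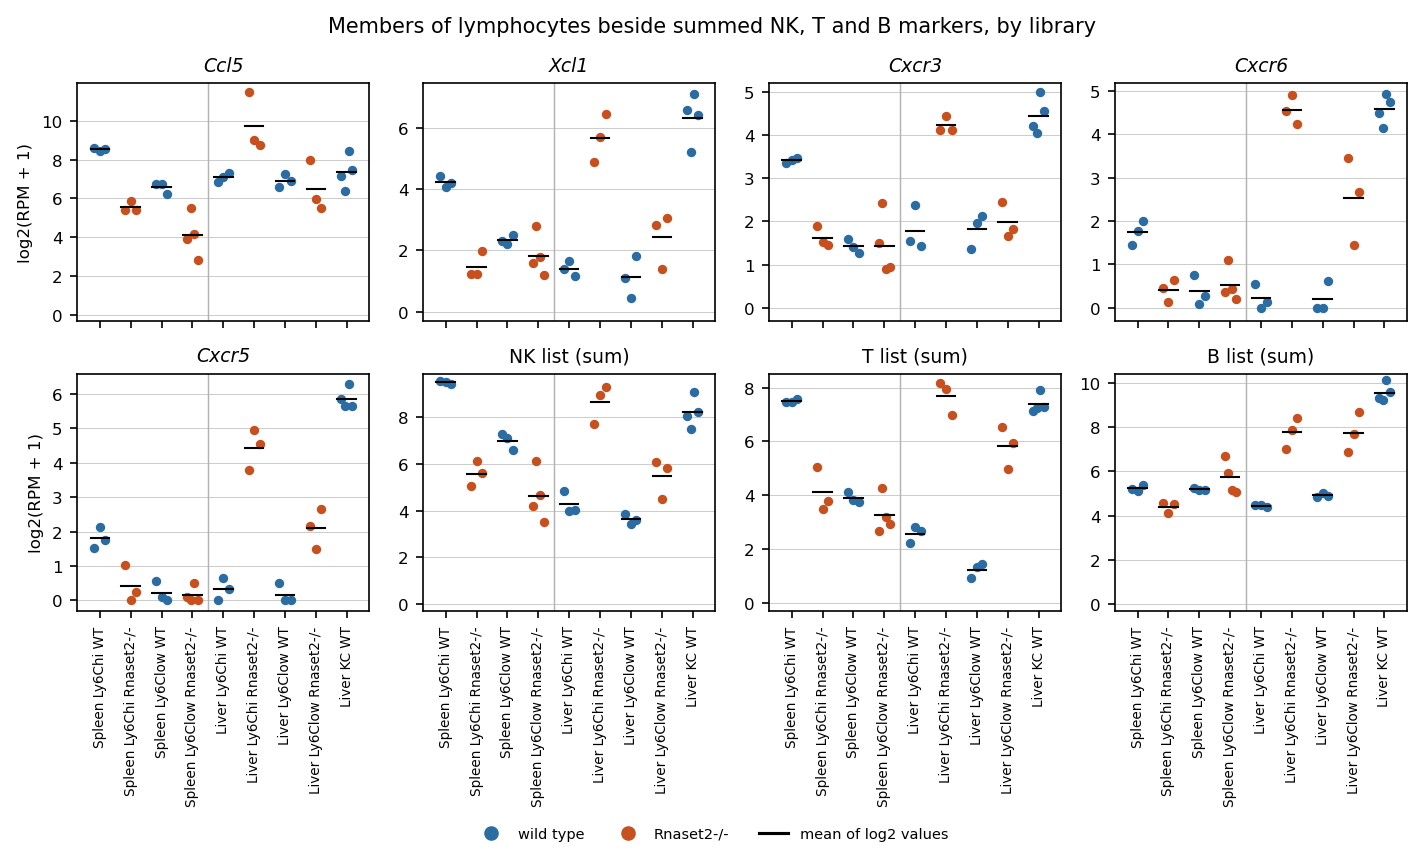
Level of Ccl5, Xcl1, Cxcr3, Cxcr6 and Cxcr5 and the summed NK, T and B cell marker lists, as log2(RPM + 1), in each library (dots) of the 9 groups with the mean of the log2 values as a black line (wild type blue, Rnaset2-/- orange). In Ly6Chi libraries Ccl5, Xcl1, Cxcr3 and Cxcr6 lie lower in Rnaset2-/- than in wild-type mice in the spleen and higher in the liver, and the NK and T cell sums do the same.

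Cxcl12, Cxcl13, Cxcl14 and Cxcl16 are homeostatic ligands with tissue-bound roles. Cxcl12, the ligand of Cxcr4 made mainly by stromal cells, measured 25.6, 28.8, 52.9 and 22.5 RPM in KCs and at most 1.13 RPM in any other library. Stromal genes were present in the KC libraries, with means of 114 RPM for Dcn, 33.8 RPM for Col1a1 and 28.2 RPM for Lrat. There 8 of 9 endothelial or stromal genes, among them Cdh5 of the KC list, were higher than in wild-type hepatic Ly6Clow libraries. Their part in the Cxcl12 level was not tested. Cxcl13, which draws B cells, measured 125, 159, 97.1 and 135 RPM in KCs and 10.6, 71.6 and 65.9 RPM in wild-type hepatic Ly6Clow libraries. It was 0, 0.584 and 0.895 RPM in wild-type and 10.6, 1.54 and 4.69 RPM in Rnaset2-/- hepatic Ly6Chi libraries, a difference given as a description, since it was tested through the Rnaset2-/- group alone, and its call was lost in 8 of 10 alternative settings, among them without any 1 of the wild-type replicates (adjusted p up to 0.153). Cxcl14 was highest in Rnaset2-/- hepatic Ly6Clow libraries, at 11.01, 45.4 and 45.0 RPM against 0.993, 1.83 and 2.505 RPM in wild type (3.41 ± 0.52, limma, adjusted p = 0.00135), and it measured 6.23, 7.40, 5.50 and 6.79 RPM in KCs.

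Cxcl16, a membrane-bound ligand and scavenger receptor of macrophages, was the 1 member that rose in splenic Ly6Chi macrophages, from 20.7, 16.7 and 18.6 RPM to 31.7, 29.3 and 27.2 RPM (0.74 ± 0.13, limma, adjusted p = 0.00164). That call was lost in 1 fit of 29 libraries (adjusted p = 0.324), and without a Rnaset2-/- replicate a second member was called higher, Cxcr2 without replicate 1 and Cxcl9 without replicate 2 or 3. In hepatic Ly6Clow macrophages it measured 293, 490.2 and 399 RPM in wild-type and 299.7, 74.4 and 86.4 RPM in Rnaset2-/- libraries. The groups overlapped through replicate 1, and its call there (limma, adjusted p = 0.0257) was lost in 6 of 13 settings, among them leaving out replicate 2 or 3 of either genotype, with an adjusted p of up to 0.0974.

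Pf4 and Ppbp are stored in platelets, and Pf4 is also made by resident macrophages. Ppbp rose in both hepatic subsets, from 0.232, 0.834 and 0.179 RPM to 7.45, 4.63 and 4.62 RPM in Ly6Chi and from 0.331, 0.959 and 1.16 RPM to 16.2, 30.8 and 20.3 RPM in Ly6Clow macrophages (3.63 ± 0.31, limma, adjusted p = 8.12e-05). The platelet list, without Pf4 and Ppbp, was 1.16 to 3.22 RPM in wild-type and 16.8 to 22.4 RPM in Rnaset2-/- hepatic Ly6Clow libraries, and 1 to 3.76 RPM and 12.2 to 24.3 RPM in hepatic Ly6Chi libraries. Its part in the rise of Ppbp was not tested. Pf4 fell in hepatic Ly6Clow macrophages instead, from 44.2, 70.4 and 114 RPM to 8.31, 6.54 and 4.36 RPM (-3.35 ± 0.36, limma, adjusted p = 0.000248). Pf4 rose in hepatic Ly6Chi macrophages from 0.695, 5.09 and 1.25 RPM to 22.2, 5.87 and 21.7 RPM (limma, adjusted p = 0.0307). That call was lost in 5 of 13 settings. These were leaving out wild-type replicate 1, wild-type replicate 3 or Rnaset2-/- replicate 3 (up to 0.111), the replicate number as a block (0.0635) and no filter (0.064). The KC list was 7.87 to 13.4 RPM in wild-type and 386 to 475 RPM in Rnaset2-/- hepatic Ly6Chi libraries. Of its 6 tested genes 4 were higher and 0 lower, and its part was not tested.

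Xcr1 marks type 1 conventional dendritic cells (cDC1). It fell in splenic Ly6Chi macrophages from 12.97, 15.1 and 12.7 RPM to 0.945, 3.04 and 2.23 RPM and rose in hepatic Ly6Chi macrophages from 2.78, 1.502 and 1.97 RPM to 19.3, 40.5 and 16.8 RPM. In hepatic Ly6Clow macrophages it rose from 8.44, 7.23 and 11.2 RPM to 120.4, 65.6 and 108 RPM (3.25 ± 0.28, limma, adjusted p = 8.94e-05). The cDC1 list without Xcr1 was 53.2 to 60.5 RPM in wild-type and 7.37 to 13.4 RPM in Rnaset2-/- splenic Ly6Chi libraries, and 52.2 to 61.6 RPM and 84.3 to 147 RPM in hepatic Ly6Chi libraries. In hepatic Ly6Clow libraries that list overlapped between genotypes (103 to 108 RPM and 74.9 to 157 RPM), while Xcr1 did not. Of its 3 genes tested there, 1 was higher and 0 lower. The part of the cDC1 list in the Xcr1 results was not tested.

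**Figure D5:**
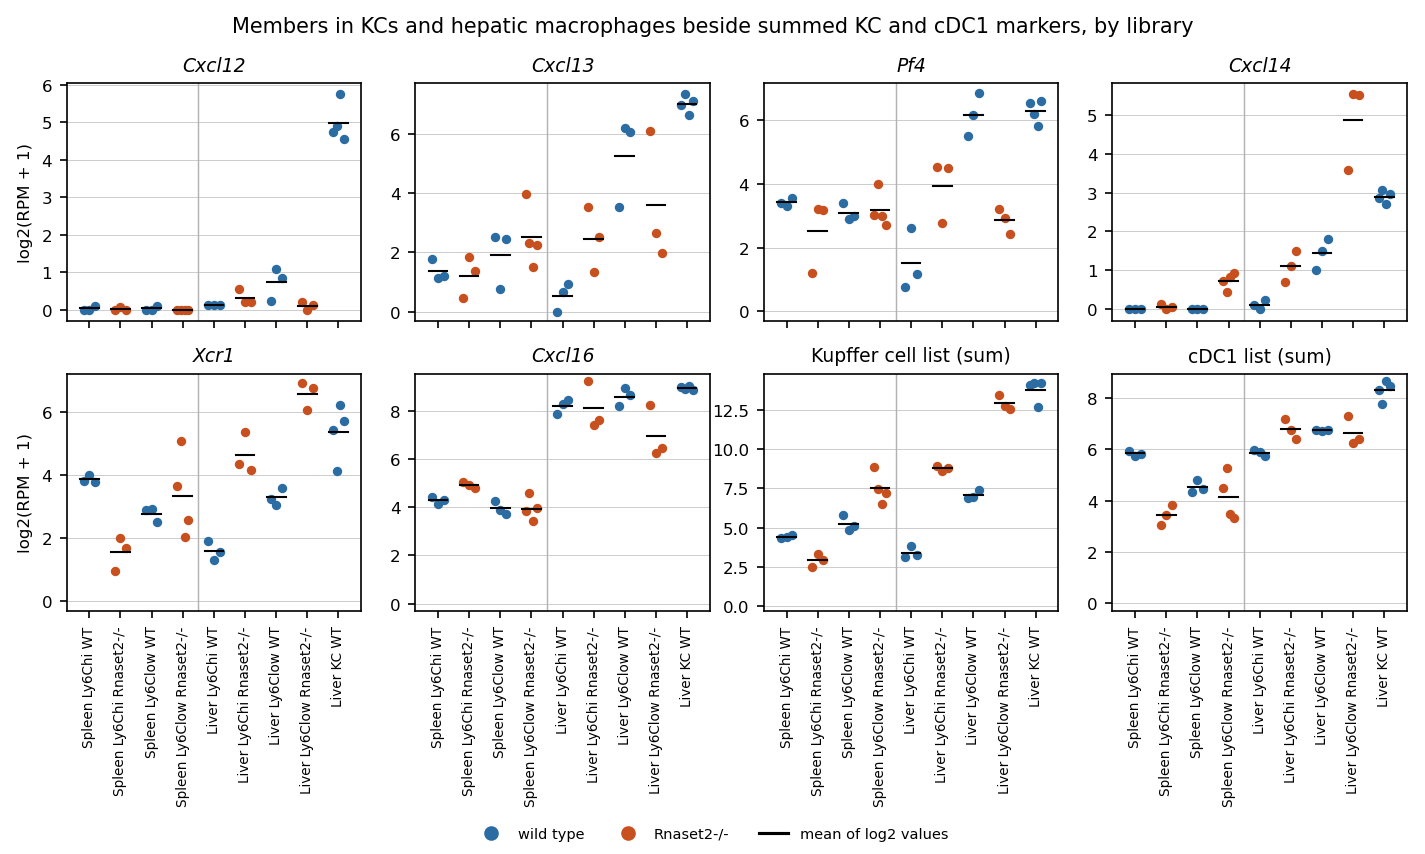
Level of Cxcl12, Cxcl13, Pf4, Cxcl14, Xcr1 and Cxcl16 and the summed KC and cDC1 marker lists, as log2(RPM + 1), in each library (dots) of the 9 groups with the mean of the log2 values as a black line (wild type blue, Rnaset2-/- orange). The summed KC list is high in KCs and, mostly through Cd5l, in Rnaset2-/- hepatic Ly6Clow libraries, whereas Cxcl12, Cxcl13 and Pf4 are high in KCs and Cxcl14 and Xcr1 highest in Rnaset2-/- hepatic Ly6Clow libraries. Pf4 overlaps between KCs and wild-type hepatic Ly6Clow libraries (means of 79.1 and 76.4 RPM).

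Among receptors of myeloid cells, Cxcr4, the receptor of Cxcl12 that holds leukocytes in bone marrow and tissue, fell in 3 comparisons. It measured 2625, 3791 and 3039 RPM in wild-type and 28.6, 18.8 and 28.9 RPM in Rnaset2-/- hepatic Ly6Clow libraries, a 124-fold lower mean and a difference of -6.95 ± 0.24 (limma, adjusted p = 2.13e-06). In hepatic Ly6Chi macrophages it measured 1763, 2019 and 2199 RPM against 202, 527 and 629.8 RPM, and in splenic Ly6Clow macrophages 2240.5, 2709.8 and 2445 RPM against 776, 1212, 1328 and 1050.0 RPM. Groups did not overlap in any of the 3, and the splenic call (limma, adjusted p = 0.0154) was lost without wild-type replicate 2 (0.0778) or 3 (0.0816). In splenic Ly6Chi macrophages Cxcr4 did not pass the test, with means of 969.9 and 795 RPM in wild-type and Rnaset2-/- mice.

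Ccrl2, an atypical receptor that binds chemerin, fell in both hepatic subsets. It measured 732, 1333 and 1289 RPM in wild-type and 57.2, 27.9 and 26.0 RPM in Rnaset2-/- Ly6Clow libraries (-4.96 ± 0.35, limma, adjusted p = 3.73e-05), and 1051, 1780.1 and 1558 RPM against 637, 163 and 300.5 RPM in Ly6Chi libraries. Ccr1, the receptor of Ccl3, Ccl5, Ccl6 and Ccl9, measured 53.2, 94.1 and 63.9 RPM against 5.08, 0.233 and 0.459 RPM in hepatic Ly6Clow macrophages, a 36.6-fold lower mean. Its fall in hepatic Ly6Chi macrophages, from 78.6, 104 and 120 RPM to 48.5, 11.7 and 11.5 RPM (limma, adjusted p = 0.0109), missed the threshold without wild-type replicate 3 (0.0518).

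In Rnaset2-/- splenic Ly6Clow libraries Ccr1 measured 84.6, 33.8, 9.72 and 11.1 RPM and Cxcr2, the neutrophil receptor, 30.7, 23.7, 4.33 and 3.66 RPM, for replicates 1 to 4. The neutrophil list, from which Cxcr2 was removed, summed to 40560, 23060, 4536 and 3575 RPM in the same order, against 1180 to 2520 RPM in wild type. For both genes and for the list in these Ly6Clow libraries, the first 2 libraries were the highest, and neither gene was called there (limma, adjusted p = 0.231 for Ccr1 and 0.121 for Cxcr2). In splenic Ly6Chi libraries Cxcr2 measured 8.95, 10.5 and 9.17 RPM in wild-type and 8.88, 19.3 and 16.2 RPM in Rnaset2-/- mice, with the neutrophil list at 32910, 31600 and 30650 RPM and 32850, 57560 and 52780 RPM. The part of neutrophil RNA in these values was not tested.

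Ccr3, the eotaxin receptor of eosinophils, fell in both splenic subsets, from 5.62, 5.83 and 4.90 RPM to 0.189, 0.931 and 1.24 RPM in Ly6Chi (-1.82 ± 0.24, limma, adjusted p = 0.000312) and from 7.55, 11.5 and 8.499 RPM to 2.28, 4.26, 3.12 and 2.75 RPM in Ly6Clow macrophages. The latter call was lost without wild-type replicate 2 or 3 (adjusted p up to 0.0756). The list of eosinophil, basophil and mast cell genes without Ccr3 was higher in these Rnaset2-/- libraries, at 348, 483 and 269.5 RPM against 108, 122 and 116 RPM in Ly6Chi macrophages, where 3 of its 6 tested genes rose and 1 fell. Ccr3 fell in hepatic Ly6Chi macrophages from 1.08, 1.00 and 2.68 RPM to 0.0770, 0.309 and 0.385 RPM, tested through the wild-type group alone, and that call was lost without any 1 of the Rnaset2-/- replicates (0.0566, 0.104 and 0.0891). Ccr9, the receptor of the gut and thymus ligand Ccl25, fell in Ly6Chi macrophages of both organs, from 4.30, 4.51 and 5.04 RPM to 1.13, 1.72 and 2.52 RPM in the spleen and from 4.48, 5.92 and 6.17 RPM to 2.38, 1.16 and 1.85 RPM in the liver. The splenic call was lost in 1 fit of 29 libraries (adjusted p = 0.0878). The plasmacytoid dendritic cell (pDC) list fell with it in splenic Ly6Chi libraries, from 127 to 137 RPM to 24.4 to 33.4 RPM with 5 of 5 tested genes lower, but overlapped in hepatic ones (61.5 to 115 RPM and 84 to 178 RPM), and its part was not tested.

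The effect of genotype itself differed between organs for most members. With the interaction term of limma (liver effect minus spleen effect), 24 of 33 tested members differed in Ly6Chi macrophages, where 33.5% of all genes did, and 23 of 35 in Ly6Clow macrophages, where 26.8% did. In Ly6Chi macrophages 14 were more negative in the liver, with Ccl17 (-3.17 ± 0.34) and Ccr1 (-2.96 ± 0.64) at the far end, and 10 were more positive, led by Xcl1, Cxcr6 (5.47 ± 0.37) and Cxcr5 (5.28 ± 0.46). Cxcr6 reached the filter there only through Rnaset2-/- hepatic and wild-type splenic libraries, which both raise the term, so its term is a description. The same held for Cxcr5 but for 1 Rnaset2-/- splenic library (1.04 RPM). The Ccl17 term was lost with edgeR (-1.89, adjusted p = 0.632) and DESeq2 (-1.54, adjusted p = 0.454), and Ccl17 was at most 0.21 RPM in every splenic Ly6Chi library. In Ly6Clow macrophages 17 were more negative in the liver, with Cxcl2 (-8.20 ± 0.58), Ccr1 (-6.23 ± 0.96) and Cxcr4 (-5.75 ± 0.34) at the far end, and 6 more positive. Members that reached the filter through hepatic libraries alone, whose terms are given as a description, were Ccl17 and Cxcl3 among those called in Ly6Chi and Ccl12, Ccl17, Cxcl3, Cxcl11, Cxcl14 and Cxcr5 among those called in Ly6Clow macrophages. Of the 6 more positive, Cxcl14 turned negative with edgeR and DESeq2, Cxcr5 was lost with both (adjusted p = 0.0713 and 0.0551), and Xcr1 and Cxcr6 were lost with edgeR (0.0695 and 0.0623).

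In wild-type mice, hepatic libraries held more of most members than splenic libraries of the same subset, with the organs processed differently before the sort. The immediate early and dissociation list was also higher in liver, with 18 of 28 genes higher in Ly6Chi and 19 of 28 in Ly6Clow macrophages, as were 13 and 10 of 17 NF-kB genes, and their part was not tested. In Ly6Chi macrophages 19 members were higher and 10 lower in liver of 33 tested, where 37.8% of all genes were called, and in Ly6Clow macrophages 21 were higher and 4 lower of 30, where 34.1% were called. Tested through 1 group alone were 8 members in Ly6Chi (Ccl12, Ccl17, Cxcl3, Ppbp, Cxcl11, Cxcl13, Cxcr5 and Cxcr6). In Ly6Clow macrophages they were 7 (Ccl7, Ccl12, Ccl17, Cxcl3, Cxcl11, Ccr3 and Cxcr2). The differences of these members are descriptions. Cxcl9 measured 23.8, 22.6 and 21.9 RPM in splenic and 2262, 1890.1 and 2371 RPM in hepatic Ly6Chi libraries (6.78 ± 0.13, limma, adjusted p = 8.17e-09). Cxcl16 was 16.1-fold higher in hepatic Ly6Chi and 27-fold higher in hepatic Ly6Clow macrophages. Cxcl11 had no read in 3 wild-type splenic Ly6Clow libraries and was at least 24.4-fold higher in the hepatic ones against 3 reads per library. The members lower in hepatic Ly6Chi libraries included Ccl5, Xcl1, Cxcr3 and Xcr1, and also Ppbp and Cxcr6, which were tested through splenic libraries alone. There 8 of 8 NK and 6 of 6 tested T cell genes were lower too (NK list 687 to 760 RPM in spleen and 14.6 to 27.6 RPM in liver), and their part was not tested. Ppbp, given as a description, measured 0.415 RPM in liver and 23.1 RPM in spleen. The platelet list beside it was 1 to 3.76 RPM and 21.6 to 26.5 RPM, with 2 of 3 tested genes lower.

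Subsets of 1 organ were compared in each genotype, with the same libraries as above. In wild-type spleen 19 members were lower and 3 higher (Ccl22, Ccr3 and Cxcr4) in Ly6Clow than in Ly6Chi macrophages of 29 tested, where 33.6% of all genes were called. Ccl7, Ccr9, Cxcr5 and Cxcr6 were tested through the Ly6Chi group alone. Lower in the same comparison were 8 of 8 NK, 6 of 6 T cell, 5 of 6 pDC, 4 of 4 cDC1 and 9 of 9 neutrophil genes tested (NK list 687 to 760 RPM in Ly6Chi and 96.9 to 156 RPM in Ly6Clow), and their part was not tested. Cxcr4 was 2240.5, 2709.8 and 2445 RPM in Ly6Clow and 965, 947 and 998 RPM in Ly6Chi libraries, the reverse of Ccr1 (7.34, 13.9 and 8.64 RPM and 47.7, 53.8 and 55.2 RPM) and Ccl2. In Rnaset2-/- spleen 3 were higher (Ccl3, Ccl4 and Ccr3) and 3 lower (Ccl9, Cxcl10 and Cxcl16) of 24, where 28.1% were called. Ccl7 was tested there through 1 group alone, as was Ccr3 in Rnaset2-/- liver. Whether the subset difference of Ccl3 differed between genotypes was not tested as such.

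In wild-type liver 6 members were higher and 6 lower in Ly6Clow macrophages of 29 tested, where 10.1% of all genes were called. Cxcl9, Cxcl10 and Cxcl11 were 3.85-fold, 4.18-fold and 4.73-fold lower, and Pf4 and Cxcl13 were higher (4.57 ± 0.47 and 4.66 ± 0.63 on the log2 scale, Ly6Clow minus Ly6Chi). Cxcl13 and Ccr3 were tested through 1 group alone, so that the Cxcl13 difference is a description. The KC list was 118 to 165 RPM in these Ly6Clow and 7.87 to 13.4 RPM in these Ly6Chi libraries, with 6 of 6 tested genes higher, and its part was not tested. The interferon response list was 568 to 612 RPM and 1190 to 1470 RPM in that order, with 8 of 11 genes lower and 0 higher. Its part was not tested either. Without wild-type Ly6Clow replicate 3 the 12 calls became 7. In Rnaset2-/- liver 12 were lower and 3 higher (Ppbp, Cxcl14 and Xcr1) of 29, where 17% were called. Ccl22 stood at 0.616, 1.25 and 1.99 RPM in Ly6Clow and 20.1, 79.6 and 82.4 RPM in Ly6Chi libraries of these mice. The 12 calls included Cxcr3, Cxcr5, Cxcr6, Ccr6 and Xcl1, beside which 6 of 7 NK, 4 of 7 B cell and 2 of 6 T cell genes tested were lower and none higher (NK list 21.2 to 67.7 RPM in Ly6Clow and 209 to 630 RPM in Ly6Chi), and their part was not tested. Without Rnaset2-/- Ly6Chi replicate 3 the 15 calls became 7, without replicate 2 they became 9, and with the replicate number as a block they became 23.

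KCs were set against both hepatic Ly6Clow groups. Against wild-type Ly6Clow macrophages, 18 members were lower and 10 higher in KCs of 36 tested, where 50% of all genes were called. Ccrl2 and Ccl3 were among the lower, with Ccrl2 at 28.3, 35.5, 37.6 and 23.6 RPM (-5.67 ± 0.25, limma, adjusted p = 9.67e-08) and Ccl3 at 125, 90.8, 204 and 136 RPM. Among the higher members were Cxcl12, Xcl1, Cxcr5 and Cxcr6, with Cxcr5 at 56.4, 48.8, 76.8 and 49.7 RPM and Cxcr6 at 21.5, 16.8, 29.4 and 25.9 RPM in KCs, beside the B, T, NK, cDC1, stromal and hepatocyte list sums given above, whose part was not tested. Ccr3, Cxcr2, Cxcr5 and Cxcr6 were tested through 1 group alone. Against KCs, 21 members were lower and 5 higher in Rnaset2-/- Ly6Clow macrophages of 35 tested, where 45.6% were called. The 5 were Ccl3, Ccl9, Ppbp, Cxcl14 and Xcr1, and those lower included Cxcl12 (tested through KCs alone, as were Ccl17, Cxcl1 and Cxcr2), Pf4 (-2.95 ± 0.27) and Cxcl13. Also lower than in KCs were 6 of 7 B cell, 5 of 7 NK, 3 of 8 T cell, 4 of 5 cDC1 and 5 of 5 hepatocyte genes tested, with 0 higher. Of 9 endothelial or stromal genes 7 were lower and 1 higher. The part of these lists was not tested. Ccrl2 overlapped, at 57.2, 27.9 and 26.0 RPM and 28.3, 35.5, 37.6 and 23.6 RPM. The scaling moved the median of all genes by 0.592 in the first and 0.531 in the second of these comparisons relative to deposited RPM, on which the splits were 17 lower and 12 higher and 22 lower and 3 higher. On deposited RPM, Ccl9 and Ppbp were not called higher than in KCs (adjusted p = 0.269 and 0.182), and Cxcl11 was not called lower in KCs (0.115).

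The other genes of the pathway, 43 of 48 listed that the table held, were other ligands, other receptors, atypical receptors and the G protein, RGS, PI3K and Rac machinery downstream. Of 29 tested in splenic Ly6Chi macrophages 4 rose and 2 fell, of 28 in splenic Ly6Clow 6 rose and 1 fell, of 30 in hepatic Ly6Chi 4 rose and 6 fell, and of 29 in hepatic Ly6Clow 6 rose and 10 fell. The shares called were 20.7%, 25%, 33.3% and 55.2%, against 22.2%, 8.35%, 30.6% and 42.7% of all genes, so those of both Ly6Chi comparisons were near the background. Rac2, a GTPase of leukocyte motility, rose in all 4, by 0.73, 1.14, 1.87 and 2.56 in that order. Rgs1, which dampens chemokine receptor signalling and is itself induced on activation, fell in splenic Ly6Chi (-1.46 ± 0.11), hepatic Ly6Chi (-3.72 ± 0.29) and hepatic Ly6Clow macrophages (-3.26 ± 0.24) and rose in splenic Ly6Clow macrophages (0.62 ± 0.16), as Ccl3 did.

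Ccr2, the receptor of Ccl2 and Ccl7, had a mean of 374 RPM in wild-type and 588 RPM in Rnaset2-/- splenic Ly6Chi macrophages (limma, adjusted p = 0.000906). In hepatic Ly6Clow macrophages it fell from 172 to 19.4 RPM (-3.58 ± 0.59), and Cx3cr1, the fractalkine receptor of patrolling monocytes, from 86.1 to 20.1 RPM. The classical monocyte list, which holds Ccr2, was 486 to 679 RPM in wild-type and 32.6 to 244 RPM in Rnaset2-/- hepatic Ly6Clow libraries. In hepatic Ly6Chi libraries it was 2840 to 3130 RPM and 1020 to 1510 RPM. In each subset 3 of its 4 genes were lower and 0 higher, and its part in the members' results was not tested. Ccl24, an eotaxin, fell from 191 to 1.54 RPM in hepatic Ly6Chi macrophages (-6.50 ± 0.34, limma, adjusted p = 8.79e-05).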

How the data were processed

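RNA of sorted macrophages was read with the Ion AmpliSeq Transcriptome Mouse kit, 1 amplicon per gene, on an Ion Proton. Per the labels and the study's methods, the authors counted reads with the AmpliSeqRNA plug-in on mm10 and deposited RPM (reads scaled to a fixed library total) for 23930 genes. Every value was a whole read count within 0.1 reads, so depth was recovered (11175843 to 21167602 reads, and 3 reads are 0.142 to 0.268 RPM). The chemokine genes, gene lists and tests were chosen with earlier results of these data known. RPM were divided by relative log expression (RLE) size factors and tested with limma 3.58.1 (R 4.3.3) on log2(value + 1), two-sided, for genes at 1 RPM or more in at least 3 compared libraries, with Benjamini-Hochberg adjustment. The study's thresholds (1.5-fold, adjusted p 0.05) were kept, but its tool, DESeq2, was an alternative because the deposited unit is RPM. Alternatives were a pseudocount of 0.1, no filter, deposited RPM, 1 fit of 29 libraries, the replicate number as a block, edgeR 4.0.16 and DESeq2 1.42.0 on recovered reads, and leaving out each library. Same-numbered Rnaset2-/- hepatic libraries deviated together (r = 0.527, 0.232 and 0.458 across genes for replicates 1 to 3), a pairing seen in the data and not given by the labels. Ly6Clow replicate 3 and Ly6Chi replicate 2 of that genotype were at 0.292, above the pair of replicates 2. In wild-type liver the same numbers gave 0.596, -0.116 and -0.159, and Ly6Clow replicate 2 with Ly6Chi replicate 3 gave 0.712. The testing code was tested on simulated data. Named genes were the 36 members and those of the fixed pathway and marker lists. Promoters are RefSeq's (GRCm38.p6), and gene positions are GENCODE's (GRCm38). RNase T2 genes were not analysed here.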

Additional observations from a re-analysis of the deposited data

Results flagged for a closer look

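Dixon's test was run in the Rnaset2-/- splenic Ly6Clow and KC groups, which held 4 libraries each. Of 64 sets, each 1 member in 1 of these groups, 5 had a single library far from the others. The test flags about 1 in 20 sets by chance. Among Rnaset2-/- splenic Ly6Clow libraries these were Pf4 in replicate 2 (15.12 RPM), Cxcl9 in replicate 1 (37.55 RPM) and Cxcl13 in replicate 1 (14.58 RPM). Among KC libraries they were Ccr6 (8.07 RPM, the lowest) and Cxcr2 (4.908 RPM, the highest), both in replicate 2.

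The effect of genotype differed between liver and spleen for the members listed here, by the interaction term of limma across all genes (adjusted p under 0.05 and more than 1.5-fold), with the liver effect minus the spleen effect on the log2 scale given in parentheses. In Ly6Chi macrophages the effect was more negative in the liver for Ccl17 (-3.17), Ccr1 (-2.96), Cxcl3 (-2.88), Ccl2 (-2.72), Cxcr4 (-2.4), Cxcl2 (-2.15), Ccl7 (-1.97), Ccrl2 (-1.92), Cxcl10 (-1.7), Ccl9 (-1.68), Ccl3 (-1.57), Ccl4 (-1.36), Ccl6 (-1.33) and Cxcr2 (-1.28). It was more positive for Xcl1 (6.73), Cxcr6 (5.47), Cxcr5 (5.28), Ccl5 (5.22), Xcr1 (5), Cxcr3 (3.91), Pf4 (3.01), Ppbp (2.63), Ccr7 (2.63) and Ccr6 (2.62). The calls of Cxcl10 and Cxcr2 were lost in 14 of 19 alternative settings each, those of Ccl7 and Ccrl2 in 3 (adjusted p up to 0.261 and 0.0556), and those of Ccl17 and Pf4 in 2 (up to 0.632 and 0.0533).

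In Ly6Clow macrophages the genotype effect was more negative in the liver for Cxcl2 (-8.2), Ccr1 (-6.23), Cxcr4 (-5.75), Ccl2 (-5.5), Ccl3 (-5.14), Ccl22 (-4.86), Ccl4 (-4.84), Ccl17 (-4.76), Ccrl2 (-4.6), Cxcl1 (-4.28), Ccl7 (-3.99), Ccl9 (-3.89), Pf4 (-3.44), Ccl12 (-3.26), Cxcl11 (-1.96), Ccl6 (-1.72) and Cxcl3 (-1.36). It was more positive for Ppbp (2.93), Cxcl14 (2.7), Xcr1 (2.69), Cxcr6 (2.17), Ccr3 (2.13) and Cxcr5 (2). Cxcl14 turned negative with edgeR and DESeq2, and with a pseudocount of 0.1 it was 1.11 (adjusted p = 0.314). Ccl12 and Cxcr5 were lost with edgeR and DESeq2 (adjusted p up to 0.298 and 0.0713), Xcr1 and Cxcr6 with edgeR (0.0695 and 0.0623), and Ppbp without splenic wild-type replicate 2, hepatic wild-type replicate 1 or hepatic Rnaset2-/- replicate 2 (up to 0.0571). Of the members listed, Ccl17 and Cxcl3 in Ly6Chi and Ccl12, Ccl17, Cxcl3, Cxcl11, Cxcl14 and Cxcr5 in Ly6Clow macrophages reached the filter through hepatic libraries alone, so their terms are descriptions. So is the Cxcr6 term in Ly6Chi macrophages, where only Rnaset2-/- hepatic and wild-type splenic libraries, which both raise it, reached the filter. For Cxcr5 there, 1 Rnaset2-/- splenic library (1.04 RPM) did so as well. In the liver, genotype and sex cannot be told apart.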

How the results depend on the processing

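Of 121 calls for members in the genotype and organ-by-genotype comparisons, 119 were kept on deposited RPM, 119 with the replicate number as a block, 117 with a pseudocount of 0.1, 115 with DESeq2, 112 without a filter, 111 in 1 fit of 29 libraries and 108 with edgeR. The scaling moved log2 fold changes of all genes by between -0.592 (KCs against wild-type hepatic Ly6Clow macrophages) and 0.531 (Rnaset2-/- hepatic Ly6Clow macrophages against KCs). Between genotypes the shift was 0.118 in splenic Ly6Chi and -0.319 in hepatic Ly6Chi macrophages, where on deposited RPM the called members split into 1 higher and 19 lower, and into 10 higher and 15 lower. When single libraries were left out, 919 calls were kept and 58 lost. This tally leaves out calls whose gene then missed the filter. Ccl7, Ccl22, Cxcl1, Ccr6 and Cxcr6 did so in splenic Ly6Chi macrophages without any 1 of the wild-type replicates. Members called in splenic Ly6Chi macrophages numbered 12 in 1 fit of 29 libraries (19 or 20 in the other settings, 14 to 21 when a library was left out), and in splenic Ly6Clow macrophages 0 to 9 when a library was left out. Between subsets, Rnaset2-/- spleen gave 10 with DESeq2 (5 to 7 in the other settings, 4 to 9 when a library was left out), wild-type liver 7 to 11 when a library was left out, and Rnaset2-/- liver 7 to 17 when a library was left out and 23 with the replicate number as a block. The organ-by-genotype difference of Cxcl14 in Ly6Clow macrophages reversed to -1.995 with edgeR (adjusted p = 0.338) and -1.524 with DESeq2 (adjusted p = 0.455). The causes were not tested. Depth limits members near 0.142 to 0.268 RPM, the level of 3 reads.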
